A study of Psophocarpus tetragonolobus with 12 samples.

Results

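The change in the pod transcriptome of winged bean (*Psophocarpus tetragonolobus*) between Day 15 and Day 30 after anthesis was described for 16918 of the 30392 genes in the expression table. These are all genes with 5 FPKM (fragments per kilobase of transcript, scaled to all mapped fragments) or more at Day 15, at Day 30 or at both. Of them, 14605 reached 5 FPKM at both stages, 882 at Day 30 only and 1431 at Day 15 only. The remaining 13474 genes stayed under 5 FPKM at both stages. At the edge of the rule, 720 genes had 5 FPKM as their higher value (66 were 2-fold higher at Day 30 and 151 lower), and 827 genes had 4 FPKM (66 higher and 152 lower) and were left out.

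All samples were pods of FP15, a purple-podded line, from plants kept in 1 growth chamber regime, and the groups differed only in pod age. Both stages, like the later Day 37 and Day 45, had 3 libraries, each of another plant, made from polyadenylated RNA without strand information, which gives 12 libraries over the 4 stages. The table held 1 whole number per gene and stage, and the sources used here do not say how it was made from the 3 libraries. No spread between plants could therefore be set beside a difference, no test was run, and every value below is a single value whose only known error is rounding by 0.5 FPKM.

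A young legume pod is a carpel that first grows by cell division and expansion and later strengthens its wall with lignified fibre layers. Lignin, flavonoids and anthocyanins all draw on the phenylpropanoid pathway, in which phenylalanine ammonia lyase (PAL), cinnamate 4-hydroxylase (C4H) and 4-coumarate CoA ligase (4CL) make the shared precursor. Chalcone synthase (CHS) and chalcone isomerase (CHI) then lead to flavonoids, whereas methyltransferases and laccases lead to lignin.

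Change is the difference in log2(FPKM+1), Day 30 minus Day 15, a scale on which differences of weakly expressed genes come out too small. Higher and lower refer to differences of 1 or more in size (2-fold). Between Day 15 and Day 30, 1455 genes were higher, which is 8.6% of the genes examined, and 1779 were lower, which is 10.5%. At 4-fold, 484 genes were higher (2.86%) and 562 lower (3.32%). The other 13684 genes differed by less than 2-fold, and the median change over all 16918 genes was 0.00. Of the calls, 1189 higher and 1339 lower held for every unrounded value that the listed whole numbers allow.

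The sum of FPKM over all genes was 709255 at Day 15 and 778688 at Day 30. Scaling both stages to the same sum moved the median change by -0.12, and the calls then stood at 1190 higher and 1918 lower. Since FPKM already divides by mapped fragments, these sums carry no sequencing depth, which is unknown from the table.

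A filter on the higher value of each gene admits some genes only through the stage in which they were high, and such genes had to differ. Among the 14605 genes at 5 FPKM or more at both stages, 877 were higher (6.005%) and 833 lower (5.704%). The excess of lower over higher calls was therefore among genes that were under 5 FPKM at one of the stages.

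**Figure D1:**
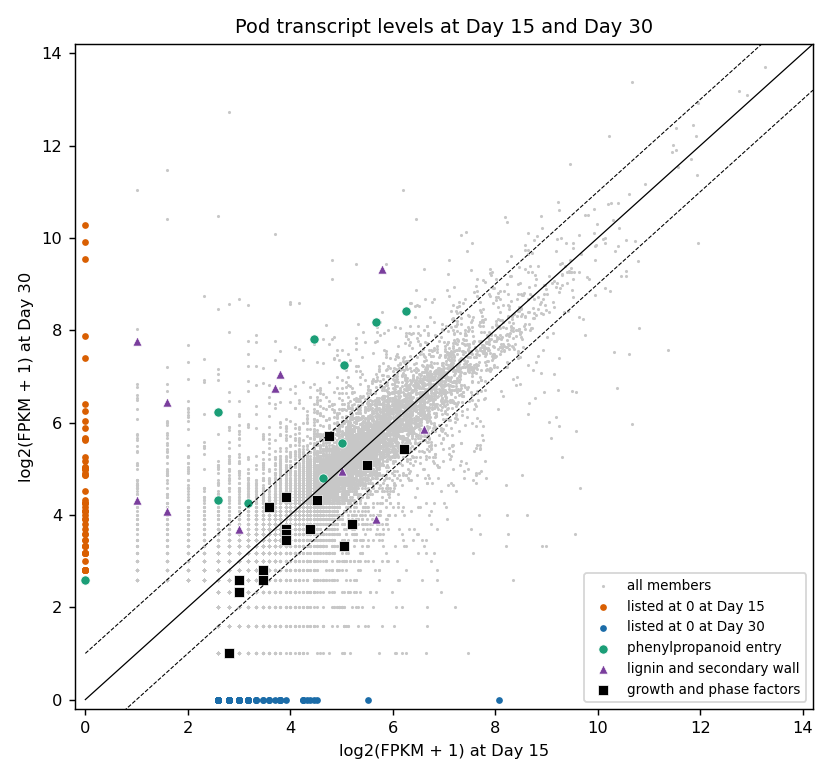
Each point is 1 of the 16918 genes, with log2(FPKM+1) at Day 15 on the horizontal axis and at Day 30 on the vertical axis. The solid line marks equal values and the dashed lines 1 log2 unit either way. Genes listed at 0 at one stage lie on the axes, most phenylpropanoid entry and lignin genes lie above the upper dashed line, and growth and phase factors lie mostly on or under the solid line.

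The calls differed with abundance. Among the 3448 genes with a higher value of 5 to under 10 FPKM, 7.57% were higher at Day 30 and 16.2% lower. In contrast, 24.1% of the 449 genes at 200 to under 500 FPKM were higher and 11.1% lower, and among the 180 genes at 500 FPKM or more, 27.8% were higher and 18.9% lower. The low-abundance calls thus leaned towards lower and the high-abundance calls towards higher.

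Genes called higher held 5.22% of all FPKM at Day 15 and 20.2% at Day 30, with a median level of 7 and 31 FPKM, respectively. Genes called lower held 14.3% at Day 15 and 3.39% at Day 30, with a median of 16 and 4 FPKM. The direction of these differences was set by the calls, so they describe only the abundance of the called genes. Of the 100 most abundant genes, 58 were shared between both stages. Of the 100 most abundant genes at Day 30 (615 FPKM or more), 41 were 2-fold higher than at Day 15, and 16 had been under 100 FPKM. Of the 100 most abundant genes at Day 15 (584 FPKM or more), 28 were 2-fold lower at Day 30, and 7 were then under 100 FPKM. Over all genes examined, 8.6% were higher and 10.5% lower. Each set of 100 was picked by the stage in which its genes were high, which favours these calls.

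**Figure D2:**
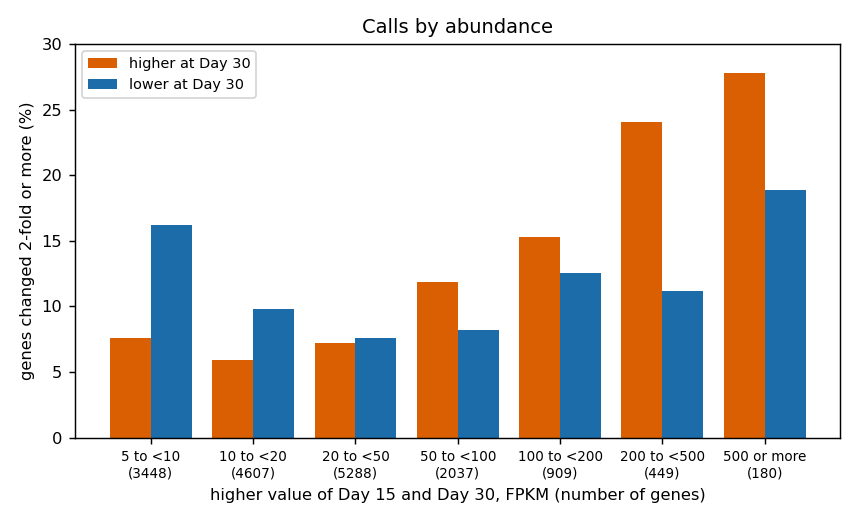
Bars give the percent of genes that were 2-fold or more higher (orange) or lower (blue) at Day 30, in bins of the higher of both stage values in FPKM, with the number of genes in each bin in parentheses. Lower calls were more frequent than higher calls in the lowest bin (16.2% against 7.57%), and the order was the opposite at 500 FPKM or more (18.9% against 27.8%).

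The label of the samples, pod, was checked with marker genes. The carpel identity factor *AG* (Psote02G0304400) was at 148 FPKM at Day 15 and 210 at Day 30, and *FUL* (Psote02G0201200), a valve factor in Arabidopsis, was at 53 and 74 FPKM. *LHCB6* (Psote03G0131300), a light-harvesting antenna protein of green tissue, was at 283 and 267 FPKM. All 3 differed by less than 2-fold. The summed level of 8 seed markers was 205 FPKM at Day 15 and 137 at Day 30, with 5 and 3 of them listed at 0. Of these, the 11S globulin gene Psote03G0078700 made up 148 and 68 FPKM, its neighbour Psote03G0078800 was listed at 0 at both stages, and the seed factor *ABI3* (Psote05G0109800) was also listed at 0 at both. The other seed markers did not move together. Psote05G0226200 was at 31 and 13 FPKM, Psote06G0400900 at 26 and 47, Psote03G0119900 at 0 and 5 and Psote04G0317000 at 0 and 4. Psote04G0062600 was listed at 0 at both stages. The markers leave out the putative 2S albumins. The 3 of these that passed the filter, 2 higher and 1 lower, summed to 390 FPKM at Day 15 and 874 at Day 30. The direction of a seed sum thus depends on the genes chosen. Summed over 3 seed coat markers, the level was 4 and 2 FPKM. Fewer cells of a type and less RNA per cell cannot be told apart in these bulk samples, and how far tissue proportions entered the values below was not tested.

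The study's tables name 416 genes of pigment, seed protein and plant architecture, grouped here into 24 lists, of which 254 genes passed the filter. Of these, 61 (24.0%) were higher at Day 30 and 30 (11.8%) were lower, beside 8.6% and 10.5% over all genes examined. These genes were chosen by the study with these pods in view, and the lignin list was put together with their stage values known, so that the shares are a description only. Counts within the lists below are to be read beside 8.6% higher and 10.5% lower over all genes examined. They include genes that passed the filter through a single stage and therefore had to differ.

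Lignin and secondary wall genes had the largest list median at the filter of 5 FPKM. Of 18 listed genes, 11 passed the filter, of which 7 were higher at Day 30, all of them at least 4-fold, 1 was lower and 3 were neither. Their median change was 3.05, against 0.00 over all genes examined, and their summed level was 269 FPKM at Day 15 and 1331 at Day 30. Passing the filter rested on Day 30 alone for 4 of the 11, which therefore had to differ. Over the other 7, at 5 FPKM or more at both stages, the median change was 0.70, so the list median rests largely on the 4. With all genes at 1 FPKM or more admitted, it was 1.5, below the 2.17 of the phenylpropanoid entry genes.

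*IRX12* (Psote05G0095400, Chr05.1, 13974678 to 13978013), a laccase of lignin polymerisation in Arabidopsis, was listed at 1, 216, 169 and 74 FPKM at the 4 stages in order of age. Its change of 6.76 was the largest of any listed gene and ranked 12 among all 16918. *LAC17* (Psote05G0104400, Chr05.1, 15610722 to 15613770), a second lignin laccase, was at 2, 86, 11 and 3 FPKM, a change of 4.86. Both laccases were thus near 0 at Day 15 and highest at Day 30, and *LAC17* was near its Day 15 level again at Day 45.

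*CCoAOMT1* (Psote03G0183300, Chr03.1, 37251714 to 37253969), which methylates caffeoyl-CoA, was at 54, 642, 530 and 396 FPKM, a change of 3.55, and ranked 95 by level at Day 30 after 2484 at Day 15. *MYB58* (Psote03G0302300), a transcriptional activator of lignin genes in Arabidopsis, was at 1, 19, 23 and 17 FPKM (3.32). At Day 30 the activator thus stood far below both laccases and the methyltransferase. Over the 5 markers of lignifying tissue, *CESA8* included, the summed level was 65 FPKM at Day 15 and 975 at Day 30.

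Copies of the caffeate methyltransferase *OMT1* did not move together. The nearby copies Psote02G0121600 and Psote02G0121400 were at 13 and 12 FPKM at Day 15 and at 132 and 107 at Day 30, with changes of 3.25 and 3.05. In contrast, Psote03G0247500 was at 50, 14, 4 and 0 FPKM (-1.77), and Psote05G0352300 was at 96, 57, 64 and 48 (-0.74). The most abundant copy at Day 15 thus became the third at Day 30. Reads can be split uncertainly between the nearby copies, and the model of Psote02G0121400 overlaps a small gene model that lies between them.

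A beta-glucosidase gene in the same list (Psote01G0130800) was at 2, 16, 31 and 97 FPKM, a change of 2.50, and was highest at Day 45 rather than at Day 30. The cellulose synthase gene *CESA8* (Psote03G0120900), which acts in secondary walls, was at 7, 12, 11 and 9 FPKM (0.70) and did not reach 2-fold.

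The entry to the phenylpropanoid pathway had the highest share of higher calls. Of 11 listed genes, 10 passed the filter, 8 were higher, none of the 10 was lower, and the median change was 2.19 (2.17 over the 9 at 5 FPKM or more at both stages). Summed over these 10, the level was 251, 1193, 1412 and 1176 FPKM from Day 15 to Day 45. When both stages were scaled to the same sum, 7 were higher, the exception being a 4CL gene near the threshold (Psote07G0204400, with 8 and 18 FPKM).

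All 4 PAL genes were higher. *PAL1* (Psote04G0213400) was at 75, 342, 425 and 326 FPKM, a change of 2.17, and was the most abundant of them at each stage. Psote08G0003200 (Chr08.1, 506470 to 509042) had the largest PAL change, 3.64, from 5 FPKM to 74, with 117 and 77 FPKM at the later stages. *PAL4* (Psote05G0268700) went from 32 to 151 FPKM and *PAL2* (Psote04G0075900) from 5 to 19, and only *PAL2* was highest at Day 45, with 60 FPKM.

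The main C4H gene, Psote08G0082200, was at 50, 289, 368 and 324 FPKM (2.51). A second C4H gene, Psote04G0029100 (Chr04.1, 4665546 to 4667620), was listed at 0 at Day 15 and at 5, 5 and 3 FPKM at the following stages, so that it passed the filter at its edge. Nearly all C4H signal therefore came from Psote08G0082200, whose model overlaps another gene model. Of the 4CL genes, Psote06G0323800 (Chr06.4, 20696689 to 20708183) was at 21, 222, 189 and 158 FPKM (3.34), whereas Psote03G0374500 was at 31 and 46 FPKM (0.55) and Psote01G0231200 at 24 and 27 (0.16). Psote06G0323800 was thus below both of these at Day 15 and the most abundant of them at Day 30.

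**Figure D3:**
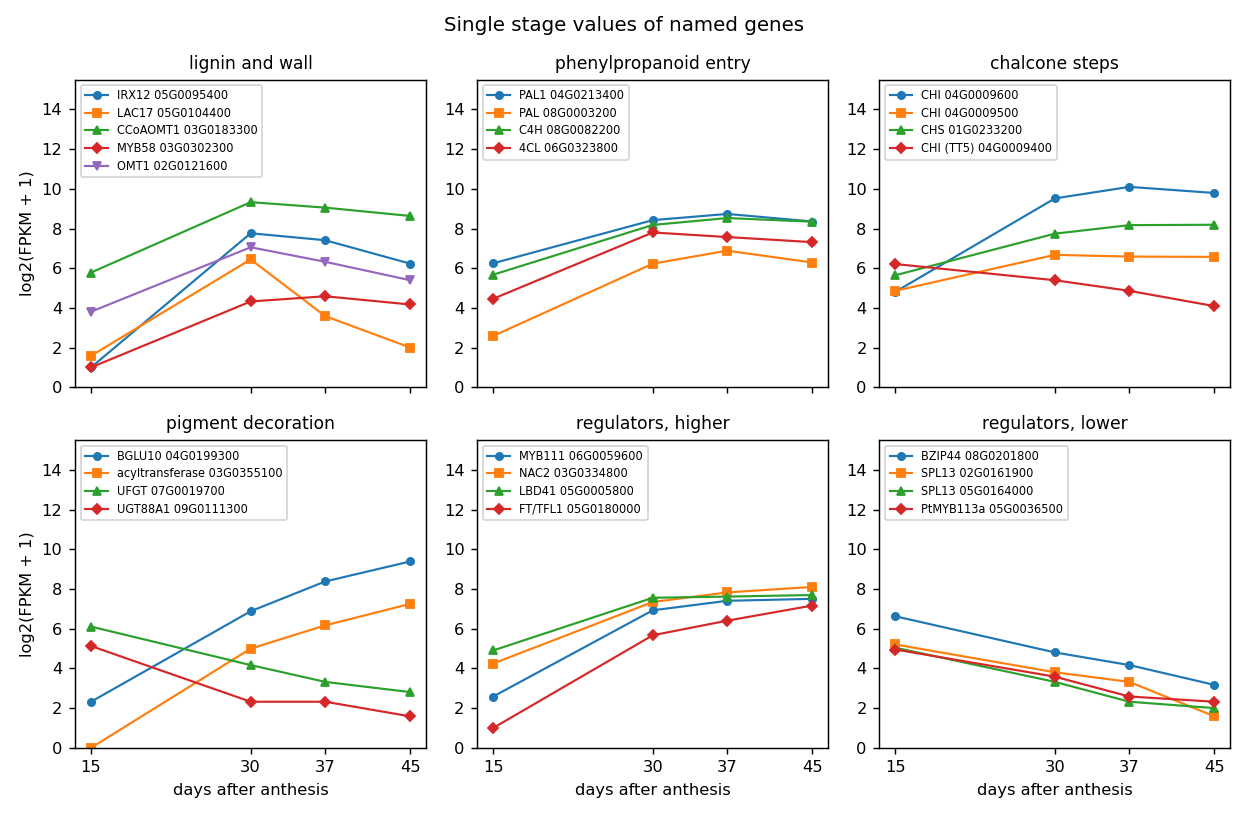
Points give log2(FPKM+1) of named genes at 15, 30, 37 and 45 days after anthesis, 1 pooled value each with no error bar, in 6 panels by role, with the gene ID shortened by its prefix. The steepest step of most lignin and entry genes lay between Day 15 and Day 30, *LAC17* was back at 3 FPKM at Day 45, and *BGLU10* and the acyltransferase gene were highest at Day 45 (672 and 152 FPKM).

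The chalcone steps, which open the flavonoid branch, were mixed. Of 22 listed genes, 18 passed the filter, 8 were higher, 2 lower and 8 neither, with a median change of 0.80. Summed, they were at 439 FPKM at Day 15 and 1478 at Day 30, and most of this difference came from 1 gene. This gene, the CHI Psote04G0009600 (Chr04.1, 1764576 to 1765598), was at 27, 732, 1096 and 885 FPKM, a change of 4.71.

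Its neighbours on Chr04.1 differed from it. The CHI Psote04G0009500 was at 28, 101, 95 and 94 FPKM (1.81), and the CHI Psote04G0009400, the match of Arabidopsis TT5, was at 73, 41, 28 and 16 (-0.82). Of these 3 adjacent genes, Psote04G0009400 was thus the highest at Day 15 (73 FPKM), with the others nearly level at 27 and 28. At Day 30 it was the lowest, at 41 FPKM against 101 and 732. Both lower genes of the list lay outside this locus, the CHI Psote03G0314100 and the CHI-related *FAP1* (Psote05G0238700), each with 11 FPKM at Day 15 and 3 at Day 30.

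Among 8 CHS genes that passed, 4 were higher and none was lower. Psote01G0233200 was at 49, 213, 287 and 291 FPKM (2.10) and Psote01G0232400 at 16, 40, 53 and 41 (1.27), both in a tandem array on Chr01.4. Outside the array, Psote01G0207000 was at 17 and 18 FPKM and Psote05G0176800 at 14 and 7. Both chalcone reductase genes, Psote02G0223400 (1 and 9 FPKM) and Psote01G0412700 (2 and 11 FPKM), were higher, at low levels. Scaled to the same sum, the CHS Psote05G0176800 (-1.03) and the CHI Psote07G0068800 (-1.03) were also called lower, which made 4 lower genes in the list in place of 2. Reads of tandem CHS copies may be assigned uncertainly.

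The share of higher genes was 44.4% in the chalcone steps and smaller in the following lists of the pathway. It was 27.3% for flavonoid hydroxylases, 14.3% for late pigment and competing genes and 35.7% for pigment decoration genes. Of the 11 flavonoid hydroxylase genes that passed, 3 were higher and none lower, and the median change was 0.00. Psote06G0058000, a flavonoid 3'-hydroxylase, was at 43, 215, 216 and 204 FPKM (2.30), and the flavanone 3-hydroxylases Psote02G0110700 and Psote03G0135400 went from 143 to 374 FPKM (1.38) and from 26 to 81 (1.60). The match of Arabidopsis TT6 (Psote03G0189000) was at 129, 75, 42 and 15 FPKM (-0.77), below 2-fold at this step.

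Of 7 late pigment and competing genes, 1 was higher and 1 lower (14.3% each), and 5 were neither. The dihydroflavonol reductase Psote03G0413000 was at 56, 190, 181 and 143 FPKM (1.74), whereas Psote03G0340700 was at 52, 23, 21 and 35 (-1.14) and the match of TT3 (Psote08G0200700) at 164, 94, 60 and 33 (-0.80). The anthocyanidin synthase gene Psote01G0255900 was at 266 and 226 FPKM (-0.23), followed by 110 and 53. Its level was therefore nearly the same at both stages, and the lower values lay after Day 30.

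Pigment decoration genes, which attach sugars and acyl groups, spread widely in both directions. Of the 14 that passed, 5 (35.7%) were higher and 4 (28.6%) lower, with a median change of 0.53. The anthocyanin acyltransferase gene Psote03G0355100 (Chr03.5, 20784970 to 20788631) was listed at 0 at Day 15 and at 31, 71 and 152 FPKM thereafter. *BGLU10* (Psote04G0199300), listed by the study as an anthocyanin glucosyltransferase of the glycosyl hydrolase class, was at 4, 117, 333 and 672 FPKM (4.56), though its model overlaps another. Both were first seen clearly at Day 30 and were higher at each later stage.

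The 4 lower genes were all glycosyltransferases, at 12 to 68 FPKM at Day 15. Psote07G0019700 was at 68, 17, 9 and 6 FPKM (-1.94), *UGT88A1* (Psote09G0111300) at 34, 4, 4 and 2 (-2.81), Psote09G0032600 at 15, 1, 1 and 0 (-3.00) and *UGT89C1* (Psote02G0200100) at 12, 4, 4 and 3 (-1.38). The most abundant glycosyltransferase at Day 15, *UGT78D2* (Psote03G0138100), was at 110 and 73 FPKM (-0.58). One glycosyltransferase, Psote06G0097200, went the other way, from 1 FPKM to 10 (2.46). Of the malonyltransferase pair on Chr05.1, *Pt5MAT2* (Psote05G0030400) was at 22 and 51 FPKM (1.18) and *Pt5MAT1* (Psote05G0030500) at 9 and 17 (0.85), and the nearby *PMAT2* (Psote05G0030200) was at 13 and 36 FPKM (1.40).

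Of 15 pigment transport genes, 4 (26.7%) were higher and 1 (6.67%) lower, with a median change of -0.04. The transporter gene Psote04G0199900, of the ABCC class that loads conjugates into the vacuole, was at 1, 19, 47 and 88 FPKM (3.32). A run of 3 adjacent *ABCC10* genes on Chr09.4 was also higher, led by Psote09G0106600 with 19 and 67 FPKM (1.77), while *ABCC3* (Psote03G0105600) was at 12 and 3 FPKM (-1.70). The most abundant transport gene, the glutathione transferase match of TT19 (Psote07G0206000), was at 506 and 477 FPKM (-0.08).

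The regulators of pigment did not share the pattern of the entry genes. In the MYB, bHLH and WD40 complex, 6 of 11 listed genes passed, with 1 higher and 1 lower (16.7% each). *PtMYB113a* (Psote05G0036500) was at 30, 11, 5 and 4 FPKM (-1.37) and *PtMYB113b* (Psote05G0036600) at 9, 6, 5 and 6 (-0.51). *GL3* (Psote03G0038600) was at 3, 12, 17 and 20 FPKM (1.70) and passed the filter only through Day 30. *TT8* (Psote04G0319200) was at 14 and 10 FPKM, and *TTG1* (Psote02G0121100) at 25 and 23.

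Several members of the complex lay outside the filter. *PtMYB113c* (Psote05G0036700) was listed at 0 at both stages, *PtMYB114* (Psote05G0098700) at 1 and 1, and *EGL3* (Psote06G0076500) at 2 and 0. The MPK4 copies that passed, Psote06G0072100 and Psote05G0061500, were at 16 and 15 FPKM and at 10 and 8, respectively. None of these kinase and complex genes other than *GL3* and *PtMYB113a* reached 2-fold among those that passed.

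Among other MYB factors, 1 of 11 (9.09%) was higher and 3 (27.3%) were lower, beside 8.6% and 10.5% over all genes examined. All 3 lower genes passed the filter only through Day 15 and therefore had to differ. Over the 7 at 5 FPKM or more at both stages, none was lower and the median change was 0.46. The lower call of *MYB4* (Psote03G0181800) was lost under quantile normalization (-0.74). *MYB111* (Psote06G0059600, Chr06.1, 7739429 to 7741170), an activator of early flavonoid genes in Arabidopsis, was at 5, 121, 169 and 181 FPKM (4.35). *MYB15* (Psote01G0129700) was at 13, 1, 1 and 0 FPKM (-2.81), and its neighbour *MYB102* (Psote01G0129600) at 9, 3, 2 and 1 (-1.32). *MYB111* was thus the only MYB of this list above 100 FPKM, and it was first so at Day 30.

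NAC, WRKY and LBD factors included, as deposited, 4 higher (28.6%) and no lower gene among 14, with a median change of 0.30. *NAC2* (Psote03G0334800, Chr03.5, 17497279 to 17499377) was at 18, 162, 227 and 275 FPKM (3.10). *LBD41* (Psote05G0005800) was at 29, 188, 196 and 207 FPKM (2.66) and *LBD39* (Psote07G0053000, whose model overlaps another) at 17, 48, 50 and 44 (1.44). A second *LBD41* gene (Psote09G0053400) was at 12 and 27 (1.11), a call that was lost when both stages were scaled to the same sum (0.98). None of the 7 WRKY genes that passed was called as deposited, *PtWRKY70* (Psote05G0080300) with 23 FPKM at both stages. A *WRKY11* gene (Psote08G0145300) was at 30, 15, 12 and 17 FPKM (-0.95), at the threshold, and was called lower under each of the 3 rescalings (-1.08 with the same sum).

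Of 6 flowering and carpel factors, 1 (16.7%) was higher, which passed the filter only through Day 30 and therefore had to differ. This gene, a member of the *FT/TFL1* family (Psote05G0180000, Chr05.2, 7194801 to 7198380), whose members promote or delay flowering in Arabidopsis, was at 1, 50, 84 and 143 FPKM (4.67). Light signalling held 1 higher (7.69%) and no lower gene among 13, near the 8.6% higher over all genes examined. The higher one was *BBX22* (Psote01G0156600) with 2 and 7 FPKM (1.42), which also passed only through Day 30. The photoreceptor gene *PHYB* was at 43 and 75 FPKM, and the 3 *UVR8* genes were nearly level, for example 32 and 32 FPKM for Psote02G0145100.

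Of 17 growth and phase factors that passed, 3 (17.6%) were lower, beside 10.5% over all genes examined, 14 were neither, and the median change was -0.45. *SPL13* genes, which act in phase change in Arabidopsis, were at 32, 9, 4 and 3 FPKM (Psote05G0164000, -1.72) and at 36, 13, 9 and 2 FPKM (Psote02G0161900, -1.40). *ANT* (Psote02G0025400), a factor of organ growth, was at 6, 1, 0 and 0 FPKM (-1.81) and passed only through Day 15. *TCP15* (Psote01G0373400) was at 73 and 42 FPKM (-0.78), short of 2-fold.

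Other lower regulators were of low to moderate abundance. *BZIP44* (Psote08G0201800) was at 98, 27, 17 and 8 FPKM (-1.82), and *ERF034* (Psote07G0033000) at 12, 1, 2 and 1 (-2.70), whereas a second *ERF034* gene (Psote07G0005700) was at 12 and 17 FPKM (0.47). In the same ERF list, *ERF13* (Psote07G0010300) with 3 and 10 FPKM and *ERF1A* (Psote07G0034800) with 9 and 26 were higher. The gibberellin genes stayed within 2-fold, with the DELLA gene *RGL3* (Psote07G0210200) at 94 and 79 FPKM and *GAI* (Psote02G0194200) at 41 and 60. *PtUBP15* (Psote03G0312000) was at 24 and 14 FPKM, and *PtCUC2a* and *PtCUC2b* were listed at 0 at both stages.

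The remaining genes of the study's pigment table, 24 of 36 of which passed, held 3 higher (12.5%) and 2 lower (8.33%) genes with a median change of 0.05. The ribonuclease gene *RNS1* (Psote01G0376300) was at 4, 17, 16 and 10 FPKM (1.85). *ABA4* (Psote09G0055000), which acts in neoxanthin synthesis in Arabidopsis, was at 17, 41, 57 and 74 FPKM (1.22), and *ACC1* (Psote02G0085400), an acetyl-CoA carboxylase gene, at 9, 21, 24 and 26 (1.14). The most abundant genes of this group, *TRA2* (Psote05G0003200) with 297 and 242 FPKM and *bZIP53* (Psote05G0306600) with 260 and 270, stayed within 2-fold.

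**Figure D4:**
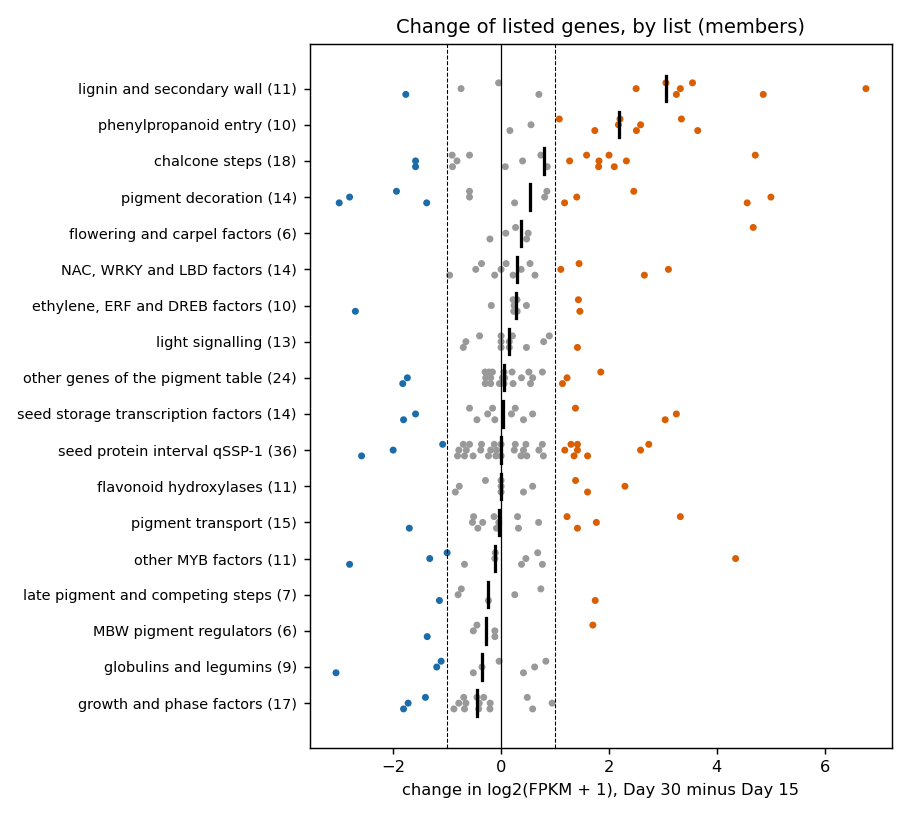
Each point is the change in log2(FPKM+1), Day 30 minus Day 15, of 1 gene that passed the filter, in the 18 lists with at least 6 such genes (number in parentheses). Black bars mark list medians and dashed lines 2-fold. The medians of lignin and secondary wall genes (3.05) and phenylpropanoid entry genes (2.19) lie beyond the dashed line, and that of growth and phase factors (-0.45) is the lowest.

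Few seed protein genes passed the filter. Of 25 globulin and legumin genes, 9 passed, none of which was higher and 3 of which were lower, with a median change of -0.35. The 11S globulin Psote03G0078700 was at 148, 68, 48 and 12 FPKM (-1.11), and a second listed globulin, Psote02G0319700, was at 24, 2, 2 and 2 (-3.06). The seed maturation protein gene Psote05G0226200 was at 31, 13, 51 and 114 FPKM (-1.19), so that its lowest value was at Day 30. The vicilin-like Psote04G0317000, at 0, 4, 29 and 58 FPKM, fell just short of the filter.

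Of 18 listed albumins, 3 passed and 2 were lower. Psote06G0196400, which the study matched to a family of lipid-transfer and 2S albumin proteins, was at 34, 4, 5 and 7 FPKM (-2.81). Of the 3 putative 2S albumins that passed, 2 were higher and 1 was lower (-1.17). The higher ones were Psote06G0099600, at 382, 853, 840 and 786 FPKM (1.16), and Psote07G0197200 (Chr07.2, 16634108 to 16638146). The latter was listed at 0 at Day 15 and at 18, 23 and 80 FPKM thereafter. The call of Psote06G0099600 was lost under quantile normalization (0.98), as was the lower call.

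Seed storage transcription factors included 3 higher (21.4%) and 2 lower (14.3%) genes among 14. A BEL1-like homeodomain gene (Psote01G0294000) was at 3, 37, 29 and 20 FPKM (3.25), and a gene similar to NAC100 (Psote06G0259600) at 12, 106, 144 and 173 (3.04). Those that were lower, Psote02G0243900 (6 and 1 FPKM) and the bHLH18-like Psote07G0046700 (5 and 1), were close to the filter.

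Within the seed protein interval *qSSP-1* on Chr03.1, 36 of 53 genes passed, with 8 higher (22.2%) and 3 lower (8.33%) and a median change of 0.00. *PtSHM2* (Psote03G0113600) was at 236, 604, 454 and 280 FPKM (1.35), and *PtSHM1* (Psote03G0113400) at 590, 1003, 835 and 527 (0.76). At both genes Day 30 was the stage of the highest level. The nicotinamidase gene *NIC1* (Psote03G0137200) was at 8, 59, 122 and 165 FPKM (2.74), and a xanthine/uracil permease gene (Psote03G0120600) at 27, 6, 5 and 5 (-2.00).

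In the same interval, the P34 homologue (Psote03G0119900, Chr03.1, 22734739 to 22736264), a papain-like protease gene, was listed at 0 at Day 15 and at 5, 1 and 23 FPKM thereafter. The acyl-activating enzyme gene *AAE16* (Psote03G0112600) had 5 FPKM at Day 15 and 0 at the other stages, whereas the *AAE18* genes Psote03G0118900 (10 and 26 FPKM) and Psote03G0117000 (14 and 33) were higher. *PtNPF* (Psote03G0123600) was listed at 0 throughout. The reference genes of the study's qPCR, *PtTUB6* (354 and 656 FPKM, 0.89) and *PtELFa* (707 and 608, -0.22), both stayed within 2-fold.

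A gene is called switched on where it was listed at 0 at Day 15 and had 5 FPKM or more at Day 30, and switched off in the opposite case. In all, 69 genes were switched on (0.408%) and 98 switched off (0.579%). A listed 0 stands for any value under 0.5 FPKM, so no fold is given for these genes. Of these 167 genes, 5 were in a list, where 1.501% of all genes examined were listed. They were the C4H gene Psote04G0029100, the acyltransferase gene Psote03G0355100, Psote07G0197200 and the P34 homologue among those switched on, and *AAE16* among those switched off.

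The switched-on genes spanned a wide range at Day 30, from 5 to 1235 FPKM with a median of 13, and 10 of the 69 were at 50 FPKM or more. At the later stages, their median was 16 FPKM (Day 37) and 15 FPKM (Day 45), none was listed at 0, and 62 and 59 of them were at 5 FPKM or more. The switched-off genes had been low at Day 15, with a median of 6 FPKM and a maximum of 269, and only 22 of the 98 were at 10 FPKM or more. Of these, 87 were listed at 0 at both later stages and none exceeded 2 FPKM. Switching on thus reached high levels in a few genes, whereas switching off involved, with 1 exception at 269 FPKM, genes under 50 FPKM.

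The step from Day 37 to Day 45 uses neither of the stages that chose the genes. Over all 16918 genes, 0.774% were 2-fold higher at Day 45 and 3.49% lower. Of the 69 switched-on genes, 12 were higher and 12 lower (17.4% each). Of the 484 genes that were 4-fold higher at Day 30, 30 (6.198%) were higher at Day 45 than at Day 37 and 52 (10.7%) lower. Of the 562 genes that were 4-fold lower at Day 30, 13 (2.31%) were higher and 198 (35.2%) lower. These 562 genes had a median of 2 FPKM at Day 37 and 1 at Day 45, against 18 and 17 over all genes examined. No minimum level applied at this step. At such low levels a difference of 1 FPKM can count as 2-fold, so their shares are not comparable with those over all genes. The same limit holds for some switched-on genes, such as Psote03G0315300 and Psote02G0251300, each at 3 FPKM at Day 37 and 1 at Day 45. Other switched-on genes were well above such levels, such as Psote04G0062400 with 80 and 296 FPKM. The 4-fold higher genes together held 1.16%, 10.4%, 12.7% and 12.9% of all FPKM in order of age, and the 4-fold lower genes held 6.61%, 0.745%, 0.537% and 0.262%. In both series the direction from Day 15 to Day 30 was set by the call.

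**Figure D5:**
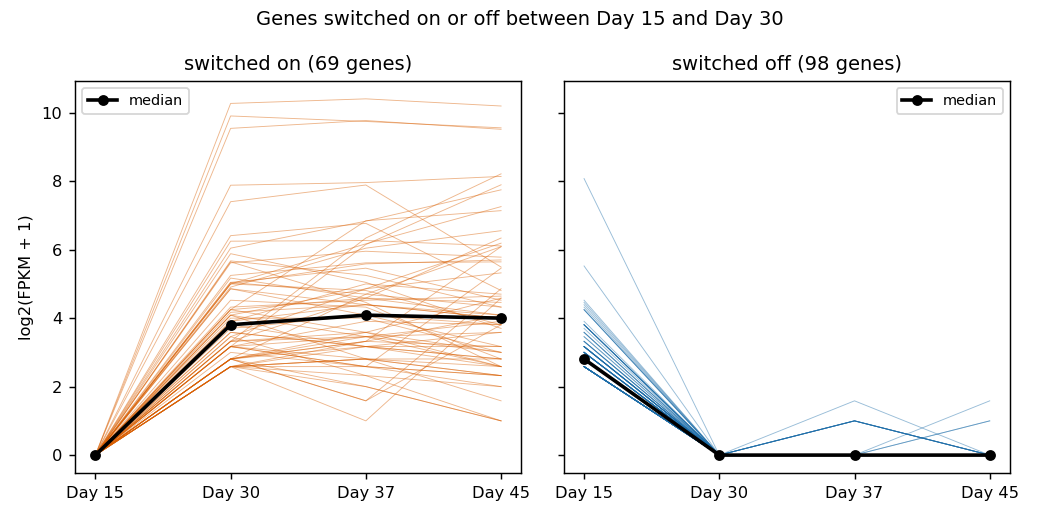
Lines give log2(FPKM+1) of each gene switched on (left, 69 genes) or off (right, 98 genes) between Day 15 and Day 30, at the 4 stages on an ordinal axis, and black points the median. The switched-on genes had a median of 13, 16 and 15 FPKM from Day 30 on, while switched-off genes stayed at 2 FPKM or less.

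The largest differences of the whole table were described beyond the lists, which hold 1.501% of the genes examined. Of the 20 largest rises by rank 1, *IRX12*, was listed, and of the 20 largest falls none was. Psote09G0100800 (Chr09.4, 6604975 to 6606830) was listed at 0 at Day 15 and at 1235, 1355 and 1172 FPKM thereafter. Psote04G0283200 (Chr04.3, 7107477 to 7108313) was at 1, 2108, 1375 and 369 FPKM, a change of 10.04. The first kept its level to Day 45, and the second was highest at Day 30.

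Both genes had neighbours that were also higher at Day 30, at unequal levels. The run on Chr09.4 from 6602188 to 6620180 held 4 adjacent gene models, all at least 4-fold higher at Day 30, of which 3 were switched on, and their sum was 57, 3624, 4139 and 3876 FPKM in order of age. On Chr04.3, the stretch from 6890856 to 7744237 is bounded by listed albumin genes and held 38 gene models, of which 9 passed the filter and 5 were at least 4-fold higher. These 5 models spanned 834 to 838 bases each and ranged from 9 to 2857 FPKM at Day 30, after 0 to 2 FPKM at Day 15. None of the 7 listed albumins in the stretch passed the filter. No sequence was compared, so whether these models of similar span are copies that share reads was not tested.

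The largest fall, Psote05G0254100 (Chr05.3, 9129912 to 9130298), was from 269 FPKM at Day 15 to a listed 0 at all 3 later stages. Psote02G0304700 (Chr02.5, 22623840 to 22626100), whose model begins 31967 bases beyond the end of *AG*, was at 176, 1, 0 and 0 FPKM (-6.47). *AG* itself, at 148 and 210 FPKM, had no such fall.

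Some neighbouring gene models had the same call, and how often this would occur by position alone was not computed. Of the 1455 higher genes, 370 (25.4%) lay directly beside another higher gene, and of the 1779 lower genes, 475 (26.7%) beside another lower gene. The longest runs were of 5 higher and 4 lower genes. One run of 5 higher genes, on Chr06.1 from 4493466 to 4543540, went from a sum of 68 FPKM at Day 15 to 833 at Day 30. Counted once per run, the higher genes made 1248 units and the lower genes 1520. Neighbours can share reads, overlap or be tandem copies, and which of these applied was not tested.

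Calls were found on all 9 chromosomes, with 7.53% to 10.4% of the genes of a chromosome higher and 9.59% to 12.7% lower. Gene models of switched-on and switched-off genes spanned a median of 2428 and 2430 bases, against 3624 over all genes examined, and 8.70% and 9.18% of them were shorter than 500 bases, against 5.16%. Values of short models rest on fewer fragments at a given FPKM.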

How the data were processed

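Pods of winged bean line FP15 were grouped by stage from the submitters' labels. Per the submitters' processing notes, the authors used fastp on the reads, mapped them by HISAT2 (2.0.5) and counted with featureCounts (version 1.5.0-p3). They deposited whole-number FPKM, 1 for each gene at each stage, which were handled as a score because a rounded FPKM has no fractions. Coordinates are those of the authors' assembly, which is of the green-podded line Ma3. The table held 0 columns of other samples. Genes with 5 FPKM or more at Day 15 or Day 30 were kept, with a pseudocount of 1 and a 2-fold threshold. The calling step was tested on simulated data. Calculations ran in Python 3.11.15 with pandas 2.3.3 and numpy 2.4.6, and figures were drawn by matplotlib 3.10.9.

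Genes were named by a rule: genes the study names, per list the 3 genes of largest rise and the 3 of largest fall past 2-fold and the 2 most abundant (some of these were left out), listed genes switched on or off, and the 2 largest rises and falls of the table. Other listed genes were chosen as examples after their values were seen. The genes and lists were chosen with earlier results of these data known. Names are Arabidopsis, soybean or other matches in the study's tables. The supplied reference gene table was of another assembly, matched 0 gene IDs and was not used here. Alternatives covered thresholds, pseudocounts, scaling, rounding and neighbouring models.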

Additional observations from a re-analysis of the deposited data

How the results depend on the processing

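No paired analysis was possible because the table holds 1 value per gene and stage, which also left no replicate to leave out. Under 13 alternatives, counts are given where they moved by more than 1.5 times. At 4-fold there were 484 higher and 562 lower genes. The lower genes were 3086 with all genes at 1 FPKM or more and 1086 with a pseudocount of 5. The number of switched-on genes (69) was 189, 598 and 40 with a minimum of 2, 1 and 10 FPKM, and that of switched-off genes (98) was 449, 1107 and 22, so both counts follow the filter. The median change of the 3 albumin genes (-1.10) came within 2-fold with a minimum of 2 FPKM (-0.79), with all genes at 1 FPKM or more (-0.29) and with a pseudocount of 5 (-0.79), and that of the 3 putative 2S albumins (1.16) under quantile normalization (0.98). No other list median crossed 2-fold, though that of the lignin genes (3.05) was 1.5 with all genes at 1 FPKM or more and 2 with a pseudocount of 5, and the median change of all genes lay between -0.12 and 0.00. For whole numbers, a pseudocount of 0.1 gives the same calls as 1 by construction. Centring on the median changed nothing, since this median was 0. The spread between plants is unknown, and values of a few FPKM are limited by rounding.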
